A study of Gallus gallus with 12 samples.

Results

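A set of 10 genes that carry, sense or regulate phosphate and calcium was followed in the breast muscle of broiler chickens: SLC20A1, SLC20A2, SLC34A2, XPR1, ATP2B1, ATP2B4, VDR, FGFR4, CASR and STC2. They were chosen by name, with earlier results of these data known, as the transcript clusters whose platform symbol was exactly one of the 10. A transcript cluster is the set of probes that the array reads as one transcript. The rule found 11 of 20804 transcript clusters, for 9 of the 10 genes: FGFR4 and CASR had 2 each, and VDR, the nuclear receptor of active vitamin D, had none under its symbol and was not analysed here.

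The tissue was Pectoralis major of Ross PM3 birds at day 36, hybridised to Affymetrix arrays. One diet was normal, and another was low in both phosphorus and calcium (here restricted). The last, titled Phy1000, was the restricted diet with added phytase, the enzyme that frees phosphate from plant phytate. Each diet had 4 arrays, and each array held RNA of a pool of 4 birds. How birds were put into pools is not stated, so p-values cover the spread between these pools, which may be partly technical.

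Animal cells take up phosphate with sodium-coupled cotransporters, of the SLC20 family in most tissues and the SLC34 family in gut and kidney, and release it through XPR1. Calcium leaves the cell through plasma membrane calcium pumps of the ATP2B family. Whole-body balance of both minerals is set by vitamin D, parathyroid hormone and phosphate-regulating fibroblast growth factors, acting on gut, kidney and bone. Muscle holds much phosphate as ATP and phosphocreatine, and runs its contraction on calcium held in the sarcoplasmic reticulum.

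Array medians lay between 3.10 and 3.19 on the log2 scale, and pairs of arrays correlated at Pearson's r from 0.959 to 0.985 over all transcript clusters. Of 10 fast-muscle markers 5 had a transcript cluster under their symbol. ACTA1, TNNI2, TNNT3 and TNNC2 averaged from 11.9 to 13.6, and PVALB was dim at 2.47. HINTW, a transcript of the female W chromosome, stood at 7.57 or above in 2 restricted and 2 phytase pools and at 2.76 or below in the other 8, so no normal pool carried its signal. No detection call came with the values. As a yardstick, 14 genes of other organs (liver, pancreas, eye, oviduct and the like) averaged between 1.61 and 5.04, and all but GNAT1 lay below 2.67, the limit of mean level for testing set at the 40th percentile of all transcript clusters.

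Against that limit 7 of the 9 genes, in 8 transcript clusters, were bright enough to be tested. XPR1 averaged 7.93 over the 12 arrays, the brighter FGFR4 transcript cluster 7.25, ATP2B4 6.70, the dimmer FGFR4 transcript cluster 5.56, SLC20A2 5.05, ATP2B1 4.81 and SLC20A1 3.17. STC2 averaged 2.73, just above the limit, and passed it in 7 of 12 arrays. CASR, at 2.33 and 1.88 in its 2 transcript clusters, and SLC34A2, at 1.90, lay below it in all 12 arrays and among the genes of other organs. Probes differ in how brightly they report the same amount of RNA, so these levels do not rank the genes by abundance.

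**Figure D1:**
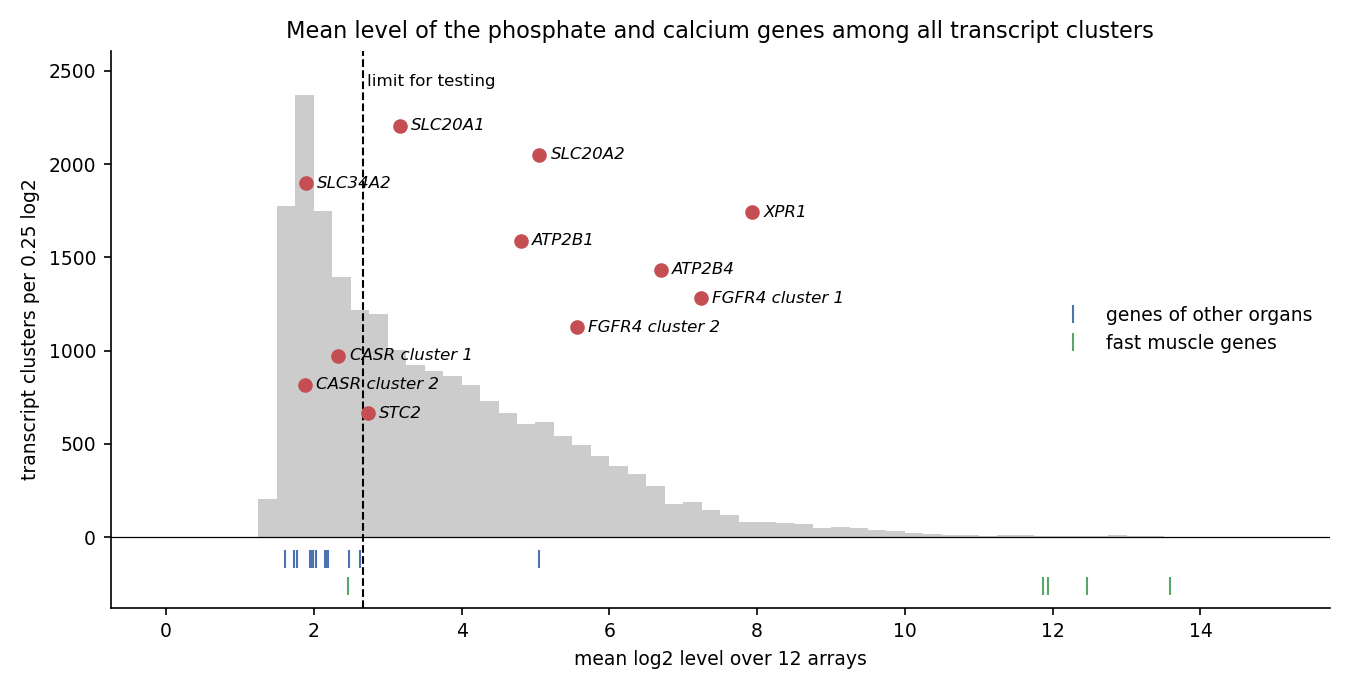
Mean log2 level over 12 arrays (horizontal axis) of the 11 transcript clusters of phosphate and calcium genes (red points, placed at arbitrary heights) over a histogram of all 20804 transcript clusters (grey bars, number per 0.25 log2). Ticks below the axis show 14 genes of other organs and 5 fast-muscle genes, and the dashed line is the limit of 2.67, with both CASR transcript clusters and SLC34A2 to its left.

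No transcript cluster of the 12482 tested passed the threshold between any diets in limma at a Benjamini-Hochberg adjusted p of 0.05, and so none of the 8 did. The background at that threshold was 0% in each of the 3 contrasts and in the F test over the 3 diets. At an unadjusted p under 0.05 the background was 5.3% of transcript clusters for restricted against normal muscle, 8.83% for phytase against restricted, 4.32% for phytase against normal, and 5.97% in the F test, from counts of 662, 1102, 539 and 745. Single arrays moved these counts by over 1.5 times. Without normal replicate 3 the count for restricted against normal muscle was 440. Without restricted replicate 3 it was 1073, and the counts for phytase against restricted and in the F test were 1727 and 1233. Without phytase replicate 2 the counts were 696 for phytase against restricted, 327 for phytase against normal, and 495 in the F test. Of the 8 transcript clusters, 0 were under an unadjusted p of 0.05 between restricted and normal muscle. The 8 include STC2, which is described below with no test. The same 2, ATP2B1 and the brighter FGFR4 transcript cluster, were under it in both contrasts with phytase, which share the phytase pools, and in the F test.

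The SLC20 cotransporters bring phosphate into the cell with sodium. SLC20A1 (transcript cluster 15471698) was at 2.96, 3.18, 2.97 and 3.65 on the log2 scale in the normal pools, 3.23, 3.48, 3.19 and 3.45 in the restricted pools, and 2.74, 3.27, 2.70 and 3.21 in the phytase pools. The phytase pools held both the lowest values and values near those of the other diets, and the diets overlapped throughout. SLC20A1 differed by -0.36 ± 0.18 (SE) between phytase and restricted muscle (limma adjusted p = 0.577, Benjamini-Hochberg), with all 4 phytase pools below the restricted mean. Between restricted and normal muscle it differed by 0.15 ± 0.18 (SE), and between phytase and normal muscle by -0.21 ± 0.18 (SE). Single pools decided the size of both: the first was 0.071 without normal replicate 1, 0.074 without normal replicate 3 and 0.30 without normal replicate 4. The second was -0.057 without normal replicate 4, -0.13 without phytase replicate 1 and -0.12 without phytase replicate 3. SLC20A1 is dim, and with 16 added on the linear scale before the logarithm the phytase-to-restricted difference was -0.12 ± 0.066 (SE). The addition pulls low values together, so a smaller difference follows by construction.

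SLC20A2 (15503135), the other SLC20 cotransporter, stood at 5.11, 4.90, 5.26 and 4.84 in the normal pools, 4.84, 5.06, 4.81 and 5.37 in the restricted pools, and 5.22, 5.09, 5.12 and 5.01 in the phytase pools. Its 3 diet means, 5.03, 5.02 and 5.11, lay within the spread of a single diet, since the restricted pools alone spanned 4.81 to 5.37. The 95% confidence interval of the difference ran from -0.33 to 0.32 for restricted against normal, from -0.23 to 0.41 for phytase against restricted, and from -0.24 to 0.41 for phytase against normal muscle.

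SLC34A2 (15512058) is the sodium-phosphate cotransporter of the intestinal brush border. Its values lay between 1.57 and 2.31 on all 12 arrays, in the range of the genes of other organs. It was not tested, because its mean of 1.90 lay below the limit of 2.67. The diet means were 1.88 ± 0.15 in normal, 1.77 ± 0.14 in restricted and 2.05 ± 0.19 in phytase muscle (SD, n = 4), with the pools of phytase and restricted muscle overlapping by 1.89 to 1.90. When all transcript clusters were fitted, the phytase-to-restricted difference of 0.28 had an unadjusted p = 0.0351 and an adjusted p = 0.652 in limma. In that fit 1531 of 20804 transcript clusters were under an unadjusted p of 0.05 in this contrast.

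XPR1 (15542370) is the phosphate exporter of animal cells, gated by inositol pyrophosphates that bind its cytosolic SPX domain. It was at 7.66, 7.95, 7.99 and 8.09 in the normal pools, 7.90, 8.08, 7.94 and 7.82 in the restricted pools, and 8.16, 7.85, 7.85 and 7.91 in the phytase pools. All 12 pools lay between 7.66 and 8.16, and both of these extremes were single pools, with all 3 diets overlapping. The differences were 0.0125 between restricted and normal, 0.0075 between phytase and restricted, and 0.02 between phytase and normal muscle, each ± 0.12 (SE). Their 95% confidence intervals ran from -0.25 to 0.27, from -0.25 to 0.27 and from -0.24 to 0.28, so differences beyond 0.28 on the log2 scale lay outside all 3.

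ATP2B1 and ATP2B4 are plasma membrane calcium pumps, activated by calmodulin, that push calcium out of the cell at the cost of ATP. ATP2B1 (15399264) was at 4.79, 4.79, 4.79 and 4.51 in the normal pools, 4.46, 4.27, 4.57 and 5.05 in the restricted pools, and 5.37, 5.18, 4.91 and 4.97 in the phytase pools. All 4 phytase pools lay above all 4 normal pools, and only restricted replicate 4 reached into the range of the phytase pools. ATP2B1 was at 5.11 ± 0.21 in phytase and 4.59 ± 0.33 in restricted muscle (SD, n = 4), a difference of 0.52 ± 0.17 (SE) or 1.43-fold, with a 95% confidence interval from 0.15 to 0.89 (limma unadjusted p = 0.00927, adjusted p = 0.519, Benjamini-Hochberg). Against the normal mean of 4.72 ± 0.14 (SD, n = 4) the phytase pools differed by 0.39 ± 0.17 (SE) or 1.31-fold (limma unadjusted p = 0.0412, adjusted p = 0.984). Restricted and normal muscle differed by -0.13 ± 0.17 (SE), with overlapping pools, and this was -0.20 without normal replicate 4, -0.027 without restricted replicate 2 and -0.29 without restricted replicate 4. By their means the diets ran from restricted through normal to phytase, and the first pair was not separated beyond its spread: without the arrays with HINTW signal restricted muscle differed from normal by 0.09. With HINTW as a covariate restricted muscle differed from normal by -0.037. The slope of that covariate comes from restricted and phytase pools only, since no normal pool carried the signal.

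The share of transcript clusters whose pools did not overlap was 2.32% between restricted and normal, 3.67% between phytase and restricted, and 3.05% between phytase and normal muscle. Of the 8 transcript clusters studied, STC2 included, 0, 0 and 2 did not overlap in these contrasts. The 2 were ATP2B1 and the brighter FGFR4 transcript cluster. Without the 4 arrays that carried HINTW signal the phytase-to-restricted difference of ATP2B1 was 0.235 in place of 0.52 (limma unadjusted p = 0.308), and the phytase-to-normal difference was 0.325. That fit rests on 2 restricted and 2 phytase pools. With HINTW as a covariate and every array kept, the first difference was 0.51 (limma unadjusted p = 0.0099, adjusted p = 0.447). The second was then 0.48 (limma unadjusted p = 0.0264, adjusted p = 0.586). The restricted pools with HINTW signal were at 4.46 and 4.27, and those without at 4.57 and 5.05. The phytase pools with the signal were at 5.37 and 4.97, and those without at 5.18 and 4.91. With 16 added before the logarithm ATP2B1 differed by 0.33 between phytase and restricted muscle and by 0.25 between phytase and normal muscle. These sizes are smaller by construction, and the unadjusted p in limma was 0.00934 and 0.0358.

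ATP2B4 (15479152) was at 6.75, 6.72, 6.80 and 6.59 in the normal pools, 6.59, 6.88, 6.47 and 6.81 in the restricted pools, and 6.79, 6.76, 6.59 and 6.67 in the phytase pools. Its 12 pools lay between 6.47 and 6.88, the narrowest range of the 8 tested transcript clusters, and both ends were restricted pools. Its largest difference between diets was -0.0275 ± 0.12 (SE), between restricted and normal muscle. The 95% confidence intervals lay within -0.29 and 0.28 in all 3 contrasts. Whether ATP2B1 differed between diets by more than ATP2B4 was not tested.

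**Figure D2:**
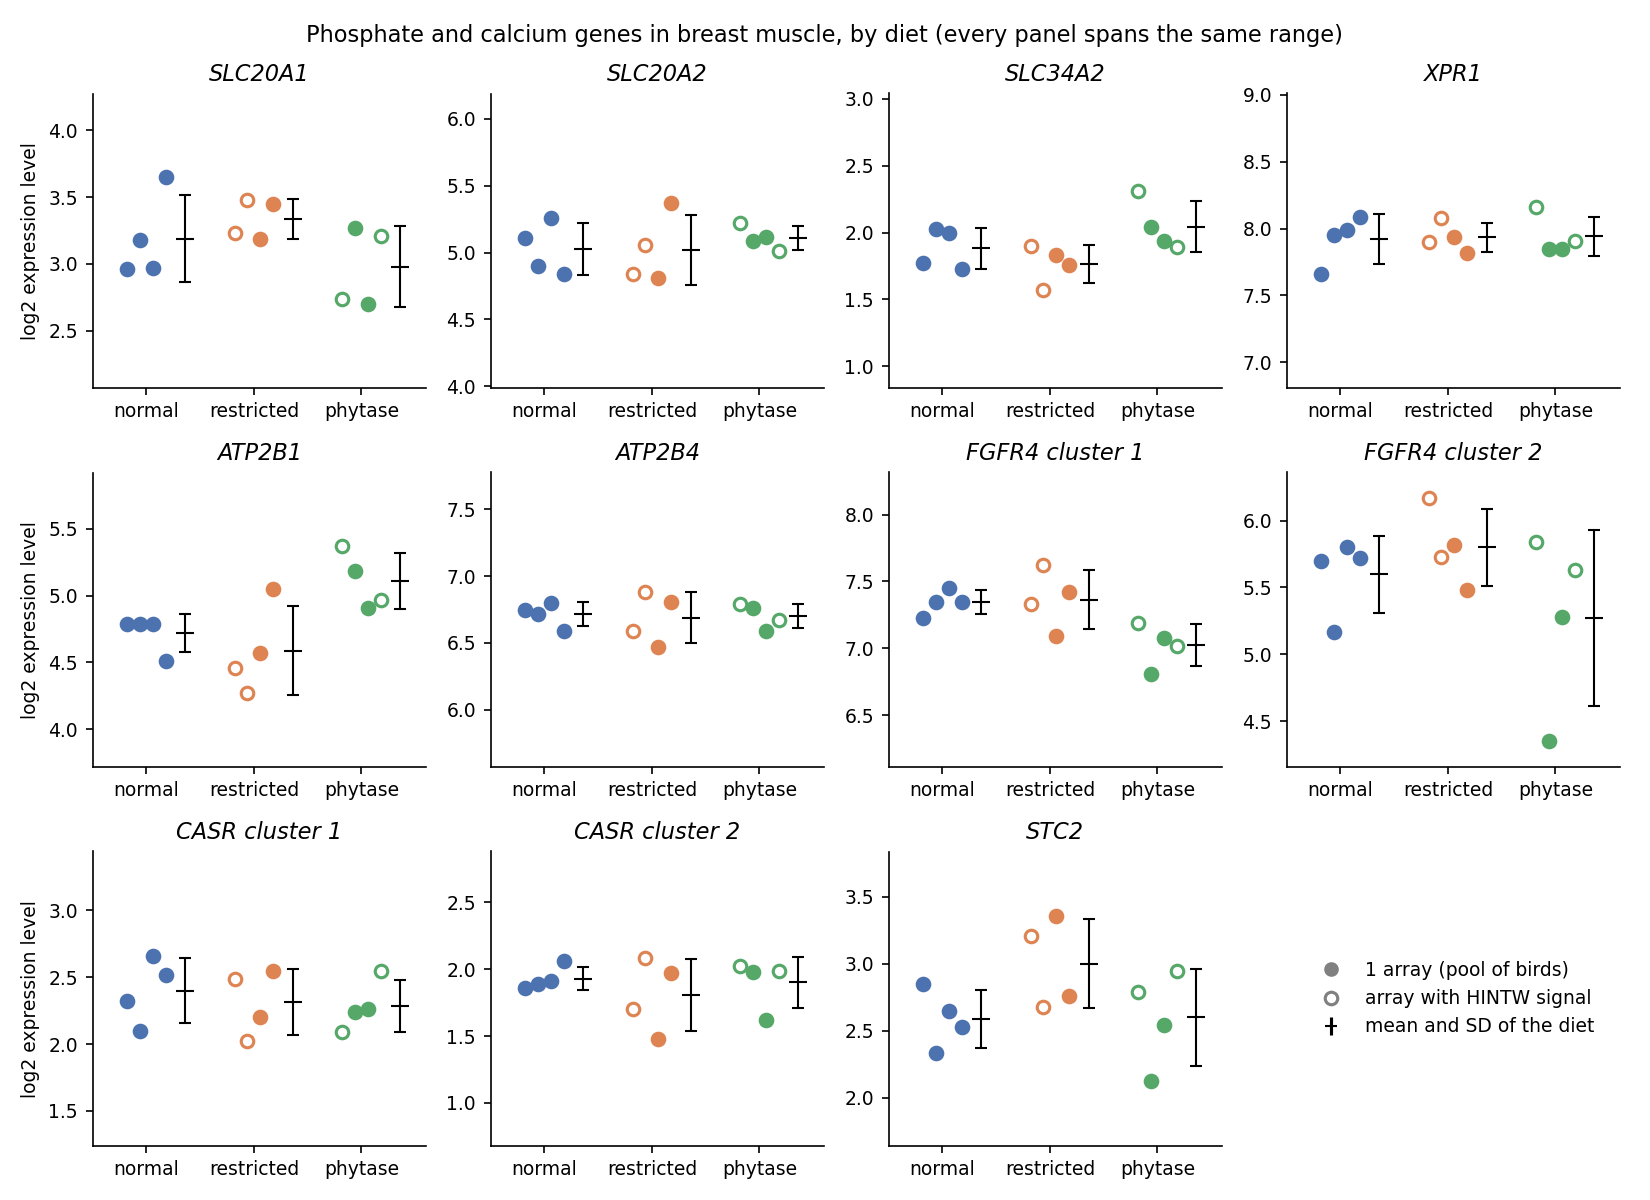
Deposited log2 expression level (vertical axis) of each transcript cluster in the 4 pools of each diet, with replicates 1 to 4 from left to right, open points for arrays with HINTW signal, and bars for the mean and SD (n = 4). Every panel spans the same height on the log2 scale; phytase pools lie above all normal pools for ATP2B1 and below all normal pools for FGFR4 cluster 1, the brighter one.

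FGFR4 is a receptor tyrosine kinase for fibroblast growth factors that is known from myogenic cells and, in mammals, from liver. Phosphate-regulating fibroblast growth factor binds it in the mammalian heart. The brighter transcript cluster (15551115) was at 7.23, 7.35, 7.45 and 7.35 in the normal pools, 7.33, 7.62, 7.09 and 7.42 in the restricted pools, and 7.19, 6.81, 7.08 and 7.02 in the phytase pools. All 4 phytase pools lay below all 4 normal pools, while restricted replicate 3 lay among the phytase pools. The phytase mean of 7.03 ± 0.16 stood against 7.37 ± 0.22 in restricted muscle (SD, n = 4), a difference of -0.34 ± 0.13 (SE) with a 95% confidence interval from -0.62 to -0.058 (limma unadjusted p = 0.0216, adjusted p = 0.519, Benjamini-Hochberg). Against the normal mean of 7.35 ± 0.09 (SD, n = 4) the difference was -0.32 ± 0.13 (SE), with an interval from -0.60 to -0.038 (limma unadjusted p = 0.029, adjusted p = 0.984). Restricted and normal muscle differed by 0.02 ± 0.13 (SE).

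The dimmer FGFR4 transcript cluster (15551117) was at 5.70, 5.17, 5.80 and 5.72 in the normal pools, 6.17, 5.73, 5.82 and 5.48 in the restricted pools, and 5.84, 4.35, 5.28 and 5.63 in the phytase pools. Phytase replicate 2 was the lowest of the 12 in both transcript clusters, at 6.81 beside 7.02 for the next in the brighter. In the dimmer it was by far the lowest, at 4.35 beside 5.17. The other phytase pools of the dimmer lay within the range of the other diets. The difference between phytase and restricted muscle was -0.525 ± 0.27 (SE; limma adjusted p = 0.584), and without phytase replicate 2 it was -0.22. Between phytase and normal muscle it was -0.32 ± 0.27 (SE), without that pool -0.014 and without phytase replicate 1 -0.51. Restricted and normal muscle differed by 0.20 ± 0.27 (SE), which was 0.060 without normal replicate 2, 0.079 without restricted replicate 1 and 0.31 without restricted replicate 4. The brighter transcript cluster kept a difference of -0.27 between phytase and restricted muscle and -0.25 between phytase and normal muscle without the same pool. Without the 4 arrays with HINTW signal the brighter transcript cluster differed by -0.31 and -0.40 in these contrasts, and the dimmer by -0.835 and -0.78. The only phytase pools in that fit were replicates 2 and 3, so the low replicate 2 weighs more in it. With HINTW as a covariate over all 12 arrays the brighter differed by -0.33 and -0.41, and the dimmer by -0.50 and -0.62. No normal pool carried the signal, so the covariate's slope comes from restricted and phytase pools only. For the dimmer, phytase pools with the signal averaged 5.735 and those without 4.815, with the low replicate 2 among the latter. Restricted pools averaged 5.95 with the signal and 5.65 without. Both transcript clusters were lowest in phytase muscle, but over the 12 pools their deviations from the diet means correlated at Pearson's r = 0.37 and Spearman's rho = 0.13, points that share arrays and normalization. Leaving out phytase replicate 2 gave r = 0.068.

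CASR, the calcium-sensing receptor through which parathyroid cells read blood calcium, was dim in both transcript clusters. The first (15390035) lay between 2.02 and 2.66 and the second (15554128) between 1.48 and 2.08 over the 12 pools. Their diet means spanned 0.12 in each case, less than the range within any diet of the first transcript cluster. Neither was tested. When all transcript clusters were fitted, their unadjusted p in limma ran from 0.382 to 0.852.

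STC2 is a secreted glycoprotein of the stanniocalcin family, named for a calcium-lowering hormone of fish, and in mammals it blocks a protease of insulin-like growth factor binding proteins. STC2 (15425163) was at 2.85, 2.33, 2.65 and 2.53 in the normal pools, 3.21, 2.68, 3.36 and 2.76 in the restricted pools, and 2.79, 2.12, 2.54 and 2.95 in the phytase pools. Restricted replicates 1 and 3 were the highest of the 12, and the other restricted pools lay within the range of the normal and phytase pools. STC2 was at 3.00 ± 0.33 in restricted, 2.59 ± 0.22 in normal and 2.6 ± 0.36 in phytase muscle (SD, n = 4). The normal and phytase means lay below the limit of 2.67, so STC2 reached the tested set only through the restricted pools where it was high, and its differences are given as a description with no test. They were 0.41 for restricted against normal, -0.40 for phytase against restricted, and 0.01 for phytase against normal muscle, with the same restricted pools in the first 2. Without phytase replicate 2 the second was -0.24. These levels are dim: with 16 added before the logarithm the differences were 0.13 and -0.12, which are smaller by construction. Their SE shrank with them, and is not given because STC2 is described with no test. Without the arrays with HINTW signal STC2 differed by -0.73 between phytase and restricted muscle and by 0.47 between restricted and normal muscle, and phytase and normal muscle differed by -0.26. The only phytase pools in that fit were replicates 2 and 3, at 2.12 and 2.54.

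**Figure D3:**
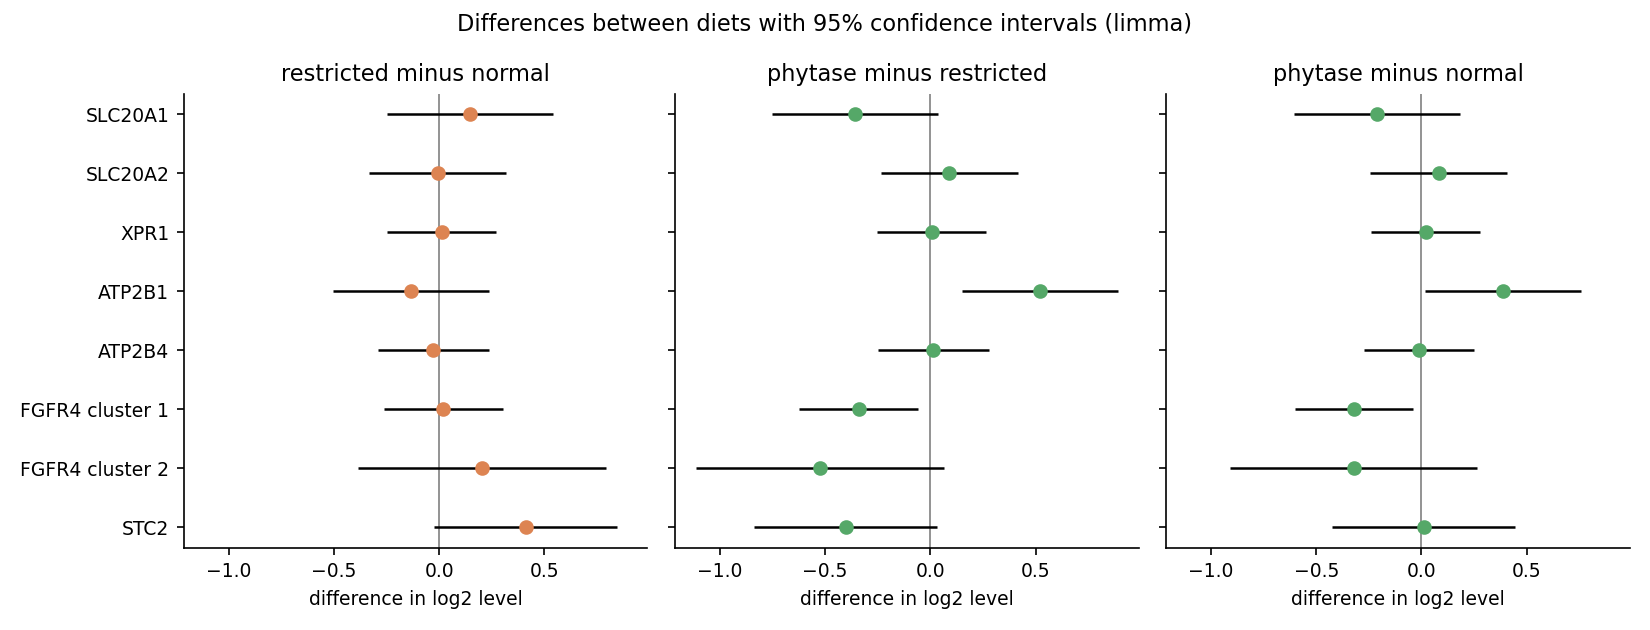
Difference in log2 level between diets (horizontal axis) of the 8 tested transcript clusters, with points for the difference and lines for its 95% confidence interval from limma, in 3 panels for the 3 contrasts. The intervals of ATP2B1 and of FGFR4 cluster 1 do not reach 0 in both panels with phytase, and no difference passed after adjustment. STC2 is drawn as a description and its interval is not read as a test, since it reached the tested set only through its restricted pools.

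Over the 8 tested transcript clusters, STC2 included, 5 were higher and 3 lower in restricted than in normal muscle, with a median difference of 0.016 beside -0.005 over all 12482. Between phytase and restricted muscle 4 were higher and 4 lower, with a median of -0.17 beside -0.0075. That median lies midway between -0.34 for the brighter FGFR4 transcript cluster and 0.0075 for XPR1. STC2, at -0.40 and described with no test, is among the 4 lower. Without STC2 the middle value is XPR1's 0.0075. FGFR4 enters with both of its transcript clusters. Between phytase and normal muscle 4 were higher and 4 lower, with a median of -0.00125 beside 0. The median size of the differences, without sign, was 0.08, 0.35 and 0.15 in the 3 contrasts, beside 0.13, 0.15 and 0.12 over all tested transcript clusters. Without STC2 the middle size in the first contrast is that of ATP2B4, which differed by -0.0275. In phytase against restricted muscle it is that of the brighter FGFR4 transcript cluster, which differed by -0.34. In phytase against normal muscle it is that of SLC20A1, which differed by -0.21.

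In bulk muscle, fewer cells of a type and less RNA per cell cannot be told apart. ATP2B1 is expressed in many cell types. Endothelial markers, 5 of 6 measured, had a summed level between 7.67 and 8.01 in normal, 7.47 and 8.34 in restricted, and 7.86 and 8.23 in phytase pools on the log2 scale. Fibroblast and matrix markers, 6 of 8 measured, lay between 11.8 and 12.8, 12.3 and 13.1, and 12.3 and 13.0. Smooth muscle markers, 2 of 4 measured, lay between 4.61 and 5.28, 4.68 and 4.78, and 4.73 and 5.40, and adipocyte markers, 4 of 5 measured, between 7.61 and 8.40, 8.20 and 8.57, and 7.80 and 8.30. Macrophage and lymphocyte markers, 4 of 7 measured, lay between 9.43 and 10.1, 9.57 and 10.5, and 9.47 and 10.2. Slow-muscle markers, 6 of 6 measured, lay between 12.24 and 12.46, 12.27 and 12.32, and 12.26 and 12.41. These 2 sums mostly follow their brightest genes, CD74 at 9.85 and TNNC1 at 12.28. The mean log2 level of the macrophage and lymphocyte list lay between 5.16 and 5.90 in normal, 4.895 and 6.58 in restricted, and 5.33 and 6.08 in phytase pools. That of the slow-muscle list lay between 5.26 and 5.56, 5.05 and 5.65, and 5.13 and 6.25. Erythroid markers, with HBA1 and HBAD measured of 5, lay between 7.71 and 8.05 in normal, 8.94 and 10.6 in restricted, and 7.67 and 8.89 in phytase pools. The deposited scale has no 0, so no marker was at 0. The part of these cells in the values of ATP2B1, FGFR4 and STC2 was not tested.

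A wider list of 75 genes of phosphate and calcium handling, also chosen with earlier results of these data known, was read beside them. Of these 55 had a transcript cluster under their symbol, 42 of them bright enough to be tested. The 42 include CYP24A1 and GC, whose means passed the limit of 2.67 only because of the diet where each was brightest. Both count as higher in restricted than in normal muscle, and in phytase than in normal muscle. In phytase against restricted muscle CYP24A1 counts as higher and GC as lower. Neither is among the genes counted by their p below. None of the 42 passed after adjustment in any contrast. Between restricted and normal muscle 23 were higher and 19 lower, with 1 higher and 1 lower at an unadjusted p under 0.05, 4.76% beside the background of 5.3%. Between phytase and restricted muscle 19 were higher and 23 lower, with 3 higher and 0 lower at that p, 7.14% beside 8.83%. Between phytase and normal muscle 24 were higher and 18 lower, and 0 were under it, beside 4.32%.

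Some of these genes stand next to XPR1 in the pathway. PPIP5K1, a kinase that makes inositol pyrophosphates, was at 3.99 ± 0.20 in restricted and 3.52 ± 0.32 in normal muscle (SD, n = 4), a difference of 0.47 ± 0.17 (SE; limma adjusted p = 0.904). KIDINS220, a scaffold protein that partners XPR1 in human cells, was at 6.58, 6.38, 6.48 and 6.83 in the normal pools, 6.03, 6.27, 6.51 and 6.41 in the restricted pools, and 6.90, 6.68, 6.52 and 6.70 in the phytase pools. Its phytase pools all lay above its restricted pools, by a narrow gap between 6.51 and 6.52. Between these diets the pools of 3.67% of all tested transcript clusters did not overlap. KIDINS220 differed by 0.395 ± 0.14 (SE) between phytase and restricted muscle (limma adjusted p = 0.519) and by -0.26 ± 0.14 (SE) between restricted and normal muscle, and both contrasts use the restricted pools. The second was -0.17 without restricted replicate 1. Without the arrays with HINTW signal these differences were 0.14 and -0.11. IP6K2, another inositol pyrophosphate kinase, differed by 0.36 ± 0.16 (SE) between phytase and restricted muscle. The other inositol pyrophosphate kinases of the list, IP6K1, IP6K3 and PPIP5K2, had an unadjusted p of 0.05 or above in every contrast. The 5 kinases did not move in one direction. Between restricted and normal muscle 2 were higher and 3 lower, the lower being IP6K1 at -0.16, IP6K2 at -0.205 and IP6K3 at -0.205. Between phytase and restricted muscle 3 were higher and 2 lower, with PPIP5K1 among the lower at -0.20.

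In the remaining roles of the wider list the genes with the smallest p were scattered. NCOR1, a corepressor of nuclear receptors, differed by 0.49 ± 0.20 (SE) between phytase and restricted muscle (limma adjusted p = 0.530). The difference was 0.30 without restricted replicate 1, 0.31 without the arrays with HINTW signal and 0.48 with HINTW as a covariate. GNAQ, a G protein subunit through which calcium-sensing receptors signal, differed by 0.425 ± 0.24 (SE) in that contrast and by 0.46 ± 0.24 (SE) between phytase and normal muscle. The first of these was 0.24 without restricted replicate 1. FGFR1, a receptor for phosphate-regulating fibroblast growth factor together with Klotho, differed by -0.30 ± 0.15 (SE) between phytase and normal muscle (limma adjusted p = 0.984), with all 4 phytase pools below the normal mean, and by -0.455 with HINTW as a covariate. TRPM7, a channel for magnesium and calcium fused to a kinase, differed by 0.29 ± 0.16 (SE) in the same contrast, which was 0.18 without normal replicate 1 and 0.14 without the arrays with HINTW signal. That difference was 0.30 with HINTW as a covariate. ACP1, a small acid phosphatase, differed by -0.36 ± 0.16 (SE) between restricted and normal muscle. CYP24A1, the enzyme that inactivates vitamin D hormone, and GC, the vitamin D binding protein of plasma, averaged 2.68 and 2.70 and reached the tested set only through the diet where each was highest, so they are described with no test. CYP24A1 was at 2.50 ± 0.25 in normal, 2.65 ± 0.32 in restricted and 2.90 ± 0.39 in phytase muscle (SD, n = 4). Its phytase-to-normal difference of 0.40 was 0.21 without phytase replicate 1, 0.18 with HINTW as a covariate and 0.22 without the arrays with HINTW signal. GC was at 2.57 ± 0.21 in normal, 2.87 ± 0.29 in restricted and 2.66 ± 0.16 in phytase muscle (SD, n = 4), and its restricted-to-normal difference of 0.30 was 0.19 without restricted replicate 1. With 16 added before the logarithm PPIP5K1 differed by 0.21, IP6K2 by 0.14, GC by 0.090, ACP1 by -0.19, GNAQ by 0.23 and 0.24, CYP24A1 by 0.12 and TRPM7 by 0.13 in these contrasts. Such smaller sizes follow from the addition by construction. Of the measured genes 13 were below the limit, among them TRPV6, CALB1, PTH, CALCR and GPRC6A, which averaged between 1.77 and 2.09.

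Within diets the tested transcript clusters did not move as one group. Over the 28 pairs, Pearson's r of deviations from the diet means over the 12 pools had a median of -0.067 and ran from -0.50 for ATP2B4 with STC2 to 0.80 for STC2 with the dimmer FGFR4 transcript cluster. For the last pair Spearman's rho was 0.71, and r lay between 0.71 and 0.87 when any 1 array was left out. SLC20A2 and ATP2B4 had r = 0.74 and rho = 0.83. All values of a pair come from the same arrays, and no test was made of these correlations.

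**Figure D4:**
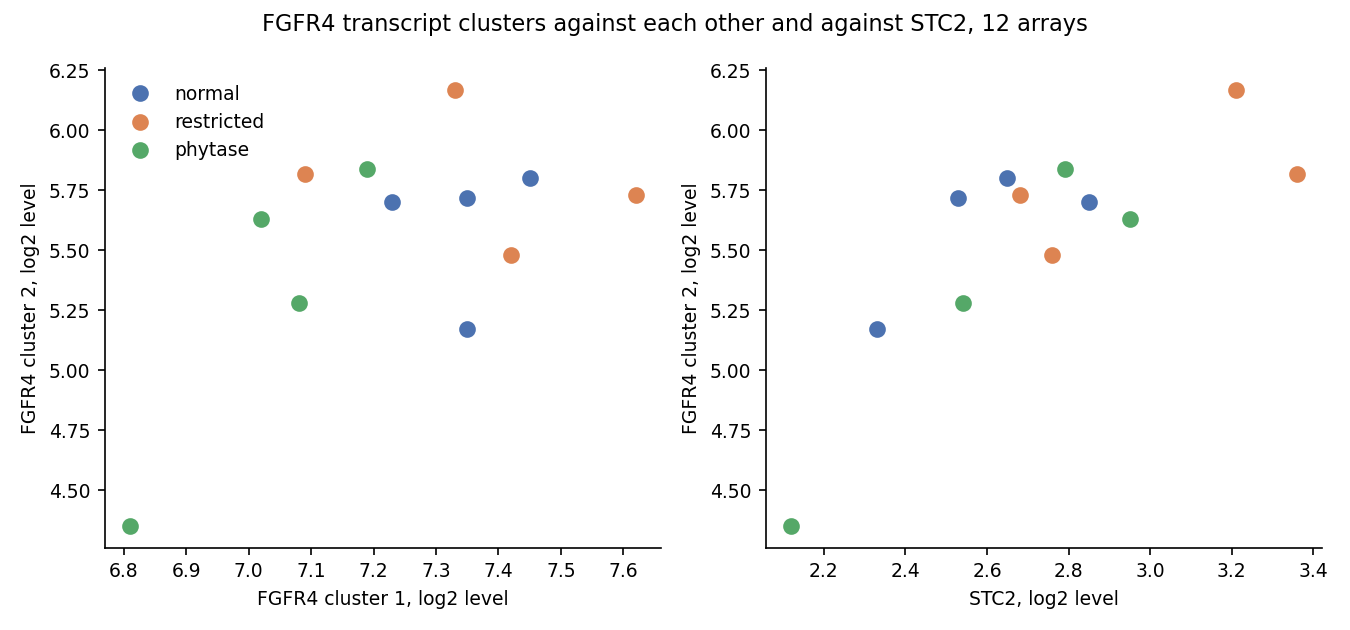
Log2 level of the dimmer FGFR4 transcript cluster (vertical axes) against the brighter FGFR4 transcript cluster (left) and against STC2 (right), 1 point per array and colours for the diets. Phytase replicate 2, at 4.35 on the vertical axis, is the lowest array in all 3 transcript clusters.

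The genes whose deviations were most like each member's were named by the highest Pearson's r over 12 pools, 2 of 7953 genes per transcript cluster, which picks high values by construction. For SLC20A1 they were DAAM2 at 0.97 and SHC1 at 0.91. For XPR1 they were HSPA9 at 0.90 and IMMT at 0.90, and for SLC20A2 SUMO2 at 0.89 and OPRD1 at 0.87. For ATP2B1 they were CDCA4 at 0.89 and ORM1 at 0.88, and for ATP2B4 LOC424199 at 0.91 and PLEKHO1 at 0.89. The brighter FGFR4 transcript cluster was most like PKNOX2 at 0.95 and RNF10 at 0.94. The dimmer one was most like RNF14 at 0.92 and AMPD1 at 0.90, and STC2 was most like RNF14 at 0.92 and A2ML4 at 0.90.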

How the data were processed

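The values are the authors' deposited log2 levels, 1 per transcript cluster and array. The submitters' processing notes name GCRMA and Expression Console of Affymetrix, without their versions or roles. Base 2 was inferred from the range of 0.83 to 14.36. Differences between dim signals depend on how low values are treated, and were smaller with 16 added before the logarithm, which shrinks them by construction. The number of arrays limits the precision.

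The platform annotation gave 1 symbol to 12300 transcript clusters, and all 11 transcript clusters of the members matched RefSeq's GRCg7b table by gene identifier with the same symbol. Normal replicate 1 was grouped by its title, since its characteristics list no diet.

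The 12482 transcript clusters whose mean reached the 40th percentile were fitted in limma 3.58.1 under R 4.3.3, with a mean for each diet over all 12 arrays, an intensity trend and Benjamini-Hochberg adjustment within each contrast. The fit was checked on simulated data, with recovery required only for differences far larger than those of the members. That check does not show whether differences of the members' size would be found. The members, wider list and marker lists were chosen with earlier results of these data known. All members were named, and from the wider list the 4 tested genes with the smallest p in each contrast. Dim genes and the remaining inositol pyrophosphate kinases were named outside this rule, after their values were seen. A gene of several transcript clusters was represented by its brightest in the lists. Summed levels are log2 of the sum of linear levels. Alternatives were other filters, normalizations and priors, a replicate block, array weights, 16 added before the logarithm, HINTW as a covariate, the fit without HINTW-positive arrays, gene means, 2-diet fits and leaving out each array.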

Additional observations from a re-analysis of the deposited data

Results flagged for a closer look

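In 4 of 54 groups of 4 pools checked among the named genes, 1 pool stood far from the other 3 by Dixon's ratio, which chance alone exceeds in about 1 in 20 groups. ATP2B1 was at 4.51 in normal replicate 4 while the other 3 normal pools were all at 4.79. The dimmer FGFR4 transcript cluster was at 5.17 in normal replicate 2 and between 5.70 and 5.80 in the others. IP6K2 was at 3.88 in phytase replicate 3 and between 3.39 and 3.46 in the others. GNAQ was at 3.36 in restricted replicate 1 and between 4.04 and 4.15 in the others.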

How the results depend on the processing

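No transcript cluster passed the adjusted threshold in limma in any contrast under any of the 14 alternatives or without any single array. ATP2B1 kept its sign between phytase and restricted muscle under all 26 settings, with an unadjusted p under 0.05 in 25, and the brighter FGFR4 transcript cluster kept its sign with such a p in 23; between phytase and normal muscle the counts were 17 and 20 of 26. Their adjusted p ran from 0.261 to 0.981 and from 0.217 to 0.981 in the first contrast. For FGFR4, 1 of the 26 settings took the mean of its transcript clusters, the dimmer one included. In that setting the difference between phytase and restricted muscle was -0.4325. Small differences changed sign. Between restricted and normal muscle SLC20A2 was at 0.063 with array weights, 0.034 with HINTW as a covariate and 0.0625 without the HINTW arrays. XPR1 was at -0.063 and -0.0425 under the last 2, the brighter FGFR4 transcript cluster at -0.076 and -0.09, the dimmer one at -0.12 under the covariate in place of 0.20, ATP2B1 at 0.09 without the HINTW arrays, and ATP2B4 at 0.032 with array weights. Between phytase and restricted muscle ATP2B4 was at -0.0065 after quantile normalization and -0.046 with array weights, and XPR1 at -0.024 with array weights and -0.03 without the HINTW arrays. Between phytase and normal muscle STC2 was at -0.028 with array weights, -0.097 with the covariate and -0.26 without the HINTW arrays, and XPR1 at -0.050 and -0.0725 under the last 2. Leaving out 1 array moved these between restricted and normal muscle from -0.12 to 0.07 for SLC20A2, -0.075 to 0.068 for XPR1, -0.092 to 0.045 for ATP2B4 and -0.065 to 0.11 for the brighter FGFR4 transcript cluster; between phytase and restricted muscle from -0.065 to 0.056 for XPR1 and -0.0575 to 0.079 for ATP2B4; and between phytase and normal muscle from -0.0675 to 0.076 for XPR1, -0.054 to 0.025 for ATP2B4 and -0.11 to 0.17 for STC2. The cause was not tested. Counts at an unadjusted p under 0.05 ran, leaving out 1 array, from 440 to 1073, 696 to 1727 and 327 to 687 in the 3 contrasts and from 495 to 1233 in the F test. With no filter, which tests 20804 transcript clusters, they were 1040 between restricted and normal and 882 between phytase and normal muscle. With the filter at the 60th percentile 8325 were tested, and the count between phytase and normal muscle was 341. Counts over unlike totals do not show a changed share. Over the same 12482 the count between phytase and normal muscle was 895 with array weights, 1029 with the covariate and 839 without the HINTW arrays. In that last fit the count between phytase and restricted muscle was 587. The titles do not state that replicate numbers mark a shared pen, day or batch, so these were not taken to pair pools. Deviations of same-numbered pools correlated between -0.16 and 0.18, over 0.1 in 3 of 12 pairs. A replicate block gave 623, 1072 and 518 in the 3 contrasts and 722 in the F test, with 0 past adjustment. With the block the unadjusted p in limma between phytase and restricted muscle was 0.025 for SLC20A1 and 0.0337 for the dimmer FGFR4 transcript cluster. Between phytase and normal muscle that p was 0.0664 for ATP2B1 and 0.0537 for the brighter FGFR4 transcript cluster.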
